A study of Mus musculus with 42 samples.

Results

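The genes described here are 8 of hepatic glucose production, taken by symbol from the 55573 gene IDs of the count tables: Pcx, Pck1, Fbp1, G6pc, Slc37a4, Pfkfb1, Ppargc1a (which encodes PGC-1 alpha) and Creb3l3 (CREBH). Messenger RNA was sequenced from livers of male C57B6/J mice in a study of how glucocorticoid and androgen signals act on each other. In the acute arm mice received corticosterone (CORT, the main glucocorticoid of mice) with enzalutamide (ENZA, a drug that blocks the androgen receptor), CORT alone, ENZA alone or vehicle. In the chronic arm they received CORT with ENZA, CORT alone or vehicle. A chronic group given ENZA alone was not analysed here. Each of the 7 groups held 6 mice, 42 libraries in all. The labels name no engineered allele, and all mice were of this 1 strain. The sources used here give no dose, route, age, length of treatment, feeding state or time of day. The arms also differed in the RNA kit (Qiagen RNeasy for acute, Macherey-Nagel NucleoSpin for chronic samples), so duration and kit cannot be told apart.

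Gluconeogenesis makes glucose in the liver during fasting from lactate, amino acids and glycerol. Pyruvate carboxylase (Pcx) turns pyruvate into oxaloacetate in mitochondria, and cytosolic phosphoenolpyruvate carboxykinase (Pck1) turns oxaloacetate into phosphoenolpyruvate. Fructose bisphosphatase (Fbp1) and the catalytic subunit of glucose-6-phosphatase (G6pc) remove phosphate groups at later steps, and Slc37a4 carries glucose-6-phosphate into the endoplasmic reticulum, where G6pc acts. Pfkfb1, the liver form of the bifunctional enzyme, sets the level of a fructose bisphosphate that restrains Fbp1 and drives glycolysis. PGC-1 alpha is a coactivator and CREBH a liver transcription factor held in the endoplasmic reticulum membrane, and both are induced by fasting. The glucocorticoid receptor and the cyclic AMP pathway are textbook activators of Pck1 and G6pc.

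RefSeq start-site windows were found for all 8 genes (assembly GRCm38.p6, 250 bases before to 50 after the start). Pck1, G6pc and Ppargc1a, each with 1 window, are shown because Pck1 and G6pc went opposite ways among the chronic vehicle mice described below and Ppargc1a encodes their coactivator. The windows are chr2:173152823-173153122 on the plus strand for Pck1, chr11:101367466-101367765 on the plus strand for G6pc and chr5:51567676-51567975 on the minus strand for Ppargc1a. Capitals mark matches on either strand to the motifs listed in the next paragraph.
Pck1: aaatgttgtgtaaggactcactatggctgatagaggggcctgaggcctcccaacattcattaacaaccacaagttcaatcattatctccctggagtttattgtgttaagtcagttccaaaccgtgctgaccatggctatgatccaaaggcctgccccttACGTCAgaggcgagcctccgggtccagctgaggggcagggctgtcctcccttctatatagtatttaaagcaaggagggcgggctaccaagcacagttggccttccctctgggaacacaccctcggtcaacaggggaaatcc
G6pc: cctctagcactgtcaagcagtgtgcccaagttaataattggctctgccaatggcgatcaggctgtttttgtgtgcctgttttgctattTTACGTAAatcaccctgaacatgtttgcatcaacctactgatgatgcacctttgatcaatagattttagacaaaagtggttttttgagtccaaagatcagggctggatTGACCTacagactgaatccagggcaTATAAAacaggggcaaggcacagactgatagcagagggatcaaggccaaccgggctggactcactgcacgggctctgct
Ppargc1a: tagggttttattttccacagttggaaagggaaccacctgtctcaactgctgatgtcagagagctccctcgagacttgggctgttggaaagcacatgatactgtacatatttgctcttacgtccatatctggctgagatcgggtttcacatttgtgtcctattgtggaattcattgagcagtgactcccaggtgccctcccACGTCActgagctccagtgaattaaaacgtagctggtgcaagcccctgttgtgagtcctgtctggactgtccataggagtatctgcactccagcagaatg

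The motifs searched on both strands were the core of the cyclic AMP response element (ACGTCA), the full palindrome of that element (TGACGTCA, which contains the core), the D-box of the clock factor DBP (TTANGTAA), the E-box (CACGTG), the core of nuclear receptor sites (AGGTCA), the full glucocorticoid response element and its core (AGAACA), the FOXO site (TGTTTAC) and the TATA box (TATAAA). The windows of Pck1 and Ppargc1a each held the cyclic AMP core once, with its first base 91 and 50 bases before the start site, and no other match. The G6pc window held the D-box letters as TTACGTAA, with the first base 162 bases before the start. It also held a nuclear receptor core 54 bases before the start and a TATA box 29 bases before it. TTACGTAA also contains the ACGT of the cyclic AMP core, and which factor binds there was not tested. Of the 3 windows of Slc37a4, 2 that overlap held the cyclic AMP core. Of 32817 distinct RefSeq windows, 7.51% held the cyclic AMP core, 2.32% the D-box, 16.3% the nuclear receptor core and 13.6% the TATA box. The Fbp1 window held none of these motifs. A match describes letters only, and a window without one says nothing about binding elsewhere.

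Total gene counts per library were 15381724 to 19581723 in chronic and 18674151 to 20464521 in acute livers. Levels are given as CPM, read counts scaled to the library's total with TMM factors. The 6 hepatocyte markers summed to 64120 to 143200 CPM over all livers. The 4 kidney markers, checked because kidney also makes glucose with these enzymes, summed to at most 0.209 CPM. The 3 adipose markers summed to at most 30.8 CPM in chronic vehicle, 22.4 in chronic CORT+ENZA and 3.13 in chronic CORT livers. Their medians were 0.12, 0.0826 and 0.0522 CPM, in that order, and the highest sum in acute livers was 0.158 CPM. The part of such tissue in the results was not tested. There were 4 libraries that lay apart from their groups in earlier results of these data, acute vehicle L19A, acute CORT+ENZA L36A, chronic vehicle 11 and chronic CORT+ENZA 18. Several results are given with and without them, and the likeness values are given only with them. The labels do not say whether mice of a group shared a cage or a day. In whole liver, fewer cells of a type and less RNA per cell cannot be told apart.

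All 8 genes were among the 13733 genes tested in the acute arm and the 13099 tested in the chronic arm. On GRCm38 with GENCODE M21 they lie at chr19:4510472-4621752 (Pcx, plus strand), chr2:173153048-173159273 (Pck1, plus), chr13:62864753-62888282 (Fbp1, minus), chr11:101367561-101377903 (G6pc, plus), chr9:44396852-44402968 (Slc37a4, plus), chrX:150588229-150643878 (Pfkfb1, plus), chr5:51454250-51567726 (Ppargc1a, minus) and chr10:81084324-81098874 (Creb3l3, minus), and all are protein coding. Of the exon bases of Pfkfb1, 3.06% lie opposite exons of Apex2 on the other strand. No source used here gives the strand setting of the counting, and reads of that stretch could belong to either gene. For the other genes no exon base was shared with another gene.

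Levels differed by orders of magnitude among the 8 genes. Per kilobase of exon, in acute vehicle livers, Fbp1 averaged 489 ± 89.8 CPM and Pck1 406 ± 123 CPM (SD, n = 6 mice), and the ranges of these top genes overlapped. Pcx (119 ± 27.9 CPM per kilobase), Creb3l3 (101 ± 8.71), G6pc (88.5 ± 31.4) and Slc37a4 (75.9 ± 13.7) formed a middle group whose neighbours overlapped. Pfkfb1 averaged 14.9 ± 1.44 and Ppargc1a 1.12 ± 0.17 CPM per kilobase, each below the whole range of the gene above it. In chronic vehicle livers the order was the same except that G6pc (230 ± 154 CPM per kilobase) stood above Pcx (121 ± 15.8) and Creb3l3 (75.4 ± 27.5), with overlapping ranges. Below, levels are CPM without the length scaling, for 1 gene at a time.

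Acute CORT against acute vehicle asked what a short glucocorticoid exposure does to these genes, and none of the 8 passed the edgeR test at an adjusted p of 0.05, where 1.62% of all tested genes did. G6pc had the largest difference. Its level was 265, 423 and 910 CPM (lowest, median, highest) in CORT livers, against 137, 203 and 335 CPM in vehicle livers. The 2 highest CORT mice, L32A and L8A, and also L2A and L14A lay above every vehicle mouse, while L20A and L26A lay inside the vehicle range. The log2 fold change of G6pc was 1.20 ± 0.32 (SE; adjusted p = 0.0569, edgeR). It passed without acute vehicle L13A, without acute CORT L20A, without acute CORT L26A or without acute CORT+ENZA L6A (adjusted p = 0.0368 to 0.0435, edgeR), and DESeq2 called it too. L6A is not in this comparison, and without it the log2 fold change of G6pc stayed at 1.20.

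Pfkfb1, the bifunctional enzyme, had 57.9, 74.7 and 84.2 CPM in acute CORT livers, against 53.1, 58.3 and 69.8 CPM in acute vehicle livers. All CORT mice but L20A lay above all vehicle mice. Its log2 fold change was 0.31 ± 0.09 (SE; adjusted p = 0.0778, edgeR), DESeq2 called it, and it passed without acute vehicle L7A (adjusted p = 0.0363) or without acute CORT L20A (adjusted p = 0.0236). Slc37a4, the transporter that serves G6pc, had a log2 fold change of 0.32 ± 0.11 (adjusted p = 0.146, edgeR), and passed only without acute vehicle L7A (adjusted p = 0.0488). The log2 fold changes of the remaining genes were −0.11 for Fbp1, 0.04 for Pcx, 0.05 for Ppargc1a, 0.16 for Creb3l3 and 0.19 for Pck1, with adjusted p of 0.478 to 0.927. Pck1 itself averaged 1592 ± 478 CPM in CORT livers and 1393 ± 423 CPM in vehicle livers (SD, n = 6 each), so its difference was smaller than the spread between mice.

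**Figure D1:**
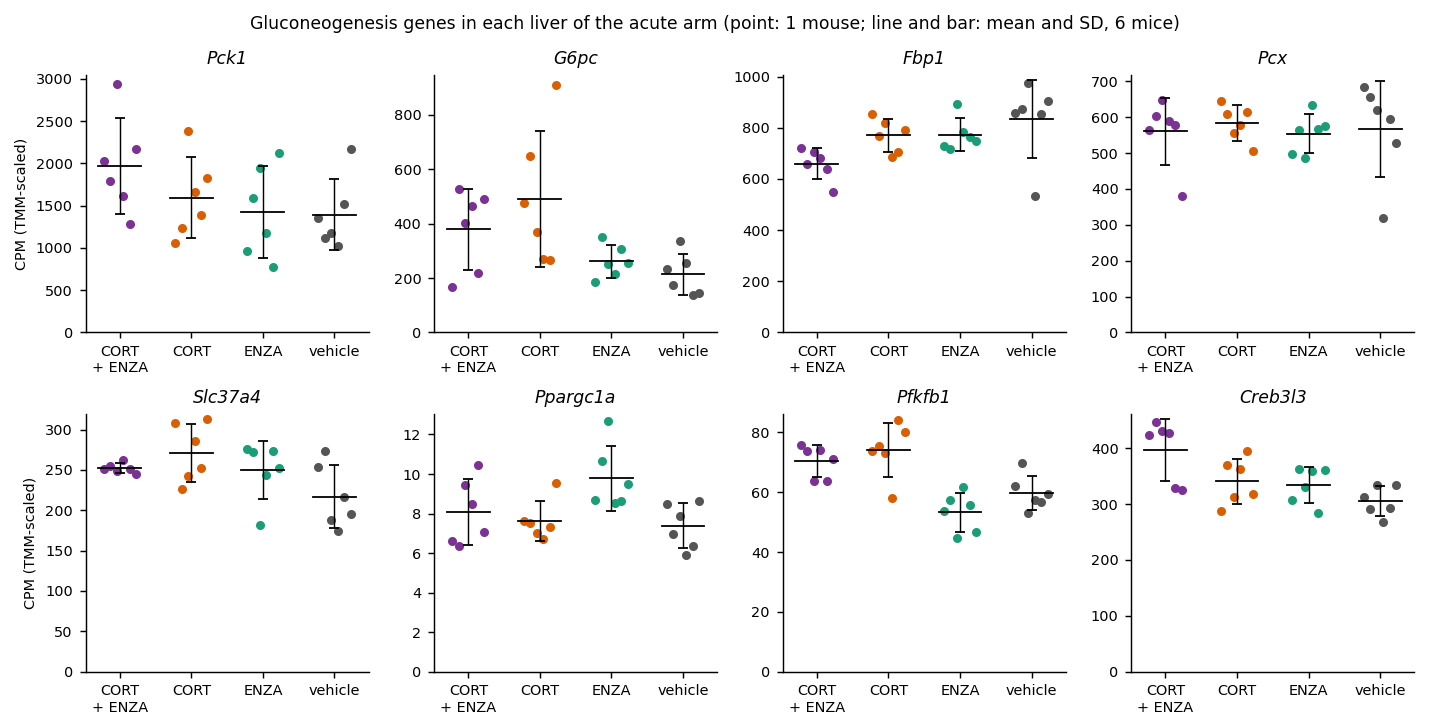
TMM-scaled CPM of each gene in each acute liver, with CORT+ENZA, CORT, ENZA and vehicle groups from left to right; points are mice, and lines and bars are the mean and SD of 6 mice. G6pc is spread most in the CORT group, from 265 to 910 CPM, and single low livers of the vehicle and CORT+ENZA groups stand out for Fbp1 and Pcx.

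ENZA alone changed none of the 8 genes in the acute arm, against 1.31% of all tested genes (adjusted p = 0.14 or more, edgeR). Ppargc1a, the coactivator gene, came nearest. It had 8.52, 9.08 and 12.7 CPM in ENZA livers, against 5.91, 7.42 and 8.63 CPM in vehicle livers. The groups overlapped only through ENZA mouse L23A, which lay just below the highest vehicle mouse. Its log2 fold change of 0.41 ± 0.13 did not pass (SE; adjusted p = 0.14, edgeR). The others had log2 fold changes of 0.29 (G6pc), 0.20 (Slc37a4), 0.13 (Creb3l3), 0.04 (Pck1), −0.03 (Pcx), −0.11 (Fbp1) and −0.17 (Pfkfb1), with adjusted p of 0.394 to 0.962.

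Acute CORT with ENZA against vehicle raised Creb3l3 alone among the 8 genes, where 2.47% of all tested genes were called and 1.42% were called higher. Creb3l3 had 324, 426 and 447 CPM in CORT+ENZA livers, against 268, 303 and 334 CPM in vehicle livers. Of the CORT+ENZA mice, 4 lay above all vehicle mice and L30A and L36A did not. Creb3l3 rose by 0.38 ± 0.10 on the log2 scale (SE; adjusted p = 0.0307, edgeR). The call was lost in a fit of these 2 groups alone (adjusted p = 0.082) and without any one of vehicle L1A, L7A, L19A or L25A or of CORT+ENZA L6A, L12A, L18A or L24A (adjusted p = 0.0522 to 0.0787, edgeR).

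Fbp1 leaned the other way under acute CORT with ENZA, at 550, 669 and 719 CPM, against 534, 865 and 973 CPM in vehicle livers. All vehicle mice but L19A lay above all CORT+ENZA mice. The log2 fold change of −0.34 ± 0.11 (SE) missed the threshold (adjusted p = 0.0904, edgeR) and was −0.44 (adjusted p = 0.00334) without vehicle L19A. G6pc had a log2 fold change of 0.83 ± 0.32 (adjusted p = 0.178), and the other 5 genes had 0.50 (Pck1), 0.24 (Pfkfb1), 0.22 (Slc37a4), 0.13 (Ppargc1a) and −0.02 (Pcx), with adjusted p of 0.171 to 0.969 (edgeR).

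Adding ENZA to acute CORT changed none of the 8 genes against CORT alone, where 0.175% of all tested genes were called. Log2 fold changes were −0.37 for G6pc, −0.22 for Fbp1, −0.11 for Slc37a4, −0.07 for Pfkfb1, −0.06 for Pcx, 0.08 for Ppargc1a, 0.22 for Creb3l3 and 0.31 for Pck1 (adjusted p = 0.902 or more, edgeR). Adding CORT to acute ENZA raised Pfkfb1, where 1.81% of all tested genes were called and 1.08% were called higher. Pfkfb1 had 63.7, 72.5 and 75.7 CPM in CORT+ENZA livers, against 44.6, 54.6 and 61.6 CPM in ENZA livers. Every CORT+ENZA liver lay above every ENZA liver, which held for 1.22% of all tested genes. Pfkfb1 rose by 0.40 ± 0.09 on the log2 scale (SE; adjusted p = 0.02, edgeR). The call was lost without ENZA L17A or L35A or CORT+ENZA L6A or L12A (adjusted p = 0.0523 to 0.0575). The other genes had log2 fold changes of 0.54 (G6pc), 0.46 (Pck1), 0.25 (Creb3l3), 0.02 (Pcx), 0.01 (Slc37a4), −0.23 (Fbp1) and −0.28 (Ppargc1a), with adjusted p of 0.195 to 0.981. The interaction of CORT and ENZA called none of the 8 genes and 0 of the 13733 genes (0%), with an unadjusted p under 0.05 for 501 genes (3.65%), and DESeq2 also called none. Its log2 values were −0.66 for G6pc, −0.32 for Ppargc1a, −0.31 for Slc37a4, −0.12 for Fbp1, −0.03 for Pcx, 0.09 for Pfkfb1 and for Creb3l3 and 0.27 for Pck1 (adjusted p = 0.994 or more, edgeR).

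The chronic vehicle livers were not of one kind for Pck1 and G6pc, which matters for every chronic comparison with vehicle. Pck1 had 3094, 1922 and 3501 CPM in vehicle mice 10, 11 and 12, against 1041, 1120 and 528 CPM in vehicle mice 13, 14 and 15. G6pc went the other way, at 189, 183 and 286 CPM in mice 10 to 12, against 979, 837 and 854 CPM in mice 13 to 15. No mouse of one run of numbers reached the range of the other for either gene. Creb3l3 had 234, 370 and 265 CPM in mice 10 to 12 and 183, 137 and 176 CPM in mice 13 to 15, again without overlap. These 3 of 8 genes stand beside 25.2% of all tested genes that did not overlap between the same runs of mice. Fbp1, Pcx, Slc37a4, Pfkfb1 and Ppargc1a overlapped between the runs. Numbers of the other chronic groups also fell into runs, CORT 1 to 3 and 25 to 27 and CORT+ENZA 4 to 6 and 16 to 18. No term for runs was fitted in the chronic arm. Every chronic comparison, that of CORT+ENZA with CORT included, treated the mice as independent. The labels give the mouse numbers and not what they stand for. The split of the vehicle mice was noticed in these values, and it was given no test.

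Genes of the circadian clock moved with that split. Of 14 clock genes, 13 did not overlap between the runs, 9 higher in mice 10 to 12 and 4 higher in mice 13 to 15, beside the same 25.2% of all tested genes. Dbp, a clock output factor, had 70.3, 135 and 142 CPM in mice 10 to 12, against 5.61, 6.34 and 1.76 CPM in mice 13 to 15. Arntl (BMAL1), the core activator of the clock, had 10.9, 4.48 and 4.76 CPM in mice 10 to 12, against 21.1, 26.6 and 26.1 CPM in mice 13 to 15. Chronic CORT+ENZA mouse 18 (Dbp 8.49 CPM) and chronic CORT mouse 1 (Dbp 7.60 CPM) also lay below the other mice of their groups, at 61.3 to 110 and 38.4 to 73.7 CPM. Their G6pc, 246 and 475 CPM, lay inside the ranges of the other mice of their groups. By runs of numbers, Dbp did not overlap in the other chronic groups either. It was 7.60 to 39.5 CPM in CORT mice 1 to 3 and 42.5 to 73.7 CPM in CORT mice 25 to 27. In CORT+ENZA mice 4 to 6 it was 87.75 to 110 CPM, against 8.49 to 66.1 CPM in CORT+ENZA mice 16 to 18. Tef was also separated in both groups, while Arntl overlapped between the CORT runs. Levels of the 8 genes were not compared between these runs. In the acute arm the lowest Dbp of any group was 68.8 CPM. The part of sampling time, feeding or any other source in the Pck1 and G6pc split was not tested.

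**Figure D2:**
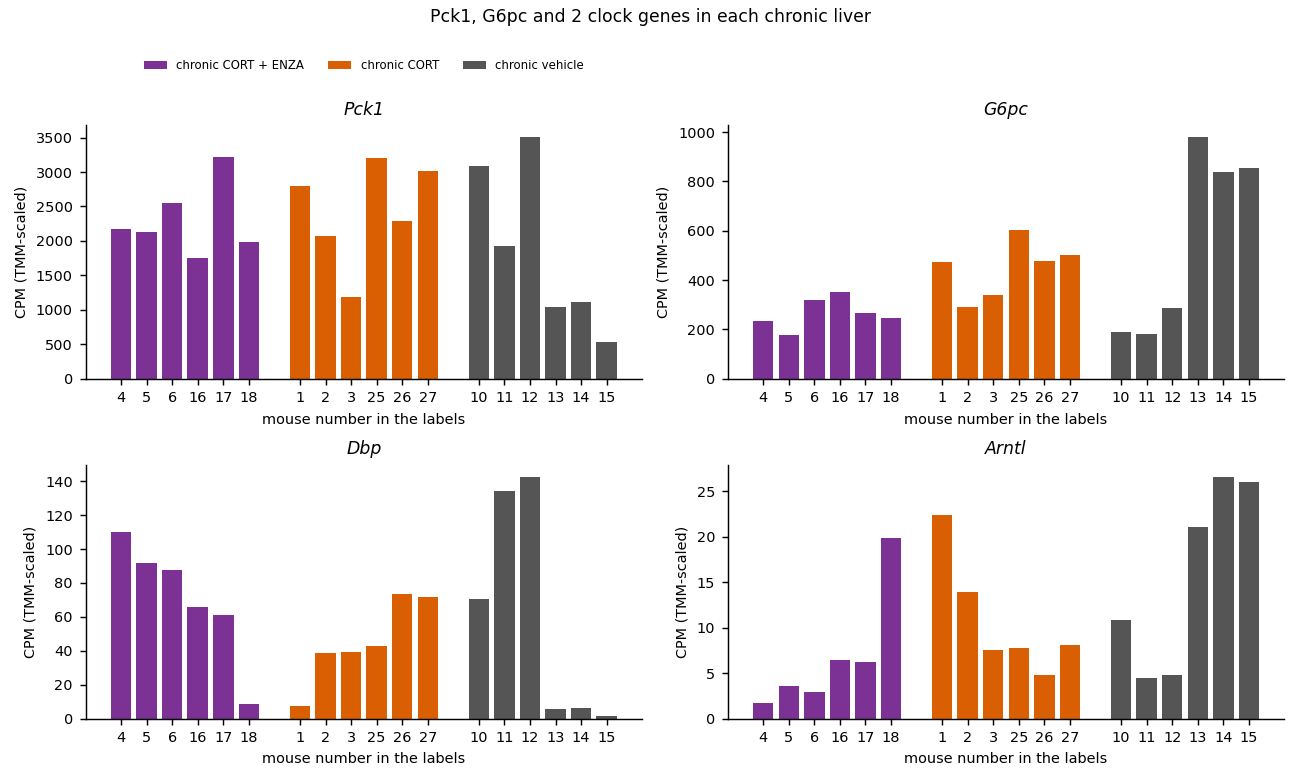
TMM-scaled CPM of Pck1, G6pc and the clock genes Dbp and Arntl in each of the 18 chronic livers; each bar is 1 mouse, numbered as in the labels, in the CORT+ENZA, CORT and vehicle groups from left to right. Vehicle mice 13 to 15 have high G6pc and Arntl and low Pck1 and Dbp, and vehicle mice 10 to 12 the reverse.

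Chronic CORT raised Pcx, Slc37a4 and Pfkfb1 against chronic vehicle. The 3 of 8 genes that rose stand beside 9.04% of all tested genes called higher and 18.3% called either way. Pcx, the entry enzyme, had 686, 787 and 907 CPM in CORT livers, against 485, 602 and 674 CPM in vehicle livers. Every CORT liver lay above every vehicle liver. Its log2 fold change was 0.48 ± 0.11 (SE; adjusted p = 0.00606, edgeR).

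Slc37a4, the glucose-6-phosphate transporter, had 262, 299 and 324 CPM in chronic CORT livers, against 183, 212 and 221 CPM in chronic vehicle livers, also without overlap. Complete separation in the higher direction, seen here for Pcx and Slc37a4, held for 3.88% of all tested genes. Slc37a4 rose by 0.49 ± 0.11 on the log2 scale (SE; adjusted p = 0.00374, edgeR). Without vehicle mice 13 to 15 it was 0.44 (adjusted p = 0.0514).

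Pfkfb1 had 60.2, 92.6 and 100 CPM in chronic CORT livers, against 46.5, 57.0 and 62.8 CPM in chronic vehicle livers. Only CORT mouse 1 lay inside the vehicle range. Pfkfb1 rose by 0.61 ± 0.12 on the log2 scale (SE; adjusted p = 0.00186, edgeR). Each comparison was refitted with every library left out in turn and under other settings, and of the 26 alternative fits here Pcx and Pfkfb1 passed in 26 and Slc37a4 in 25.

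Some markers of other cell types were also lower under chronic CORT. All 4 tested of 5 B cell markers fell under chronic CORT (median log2 fold change −3.22), and their sum was 0.0524, 0.244 and 1.38 CPM in CORT livers, against 2.97, 4.39 and 8.65 CPM in vehicle livers. Of 10 Kupffer cell markers 2 fell and 8 did not pass (median −0.79, 1 of 10 above 0), with sums of 124, 178 and 216 CPM in CORT livers, against 144, 310 and 451 CPM in vehicle livers. Of 6 stellate cell markers 1 fell and 5 did not pass (median −0.75, 0 of 6 above 0), with sums of 202, 243 and 298 CPM in CORT livers, against 215, 274 and 334 CPM in vehicle livers. Of the 6 hepatocyte markers 1 rose, 1 fell and 4 did not pass. No marker of the B cell, Kupffer cell, stellate cell and hepatocyte lists was at 0 in all livers of a group. Over all genes, 1217 of the 13099 tested were called lower. Summed T and NK cell markers were 0.217 to 0.786 CPM in CORT livers and 1.06 to 2.4 CPM in vehicle livers. Summed pancreas markers were 6.18 to 21.5 CPM in CORT livers and 26.7 to 42.4 CPM in vehicle livers. Summed intestine markers leaned higher, at 86.9 to 155 CPM in CORT livers and 56.0 to 114 CPM in vehicle livers. The part of these markers in the results for Pcx, Slc37a4 and Pfkfb1 was not tested.

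G6pc and Pck1, the genes that the glucocorticoid receptor activates by textbook accounts, were not called under chronic CORT. G6pc had 291, 477 and 602 CPM in CORT livers, against 183, 561 and 979 CPM in vehicle livers. All CORT mice lay between the low and the high run of vehicle mice. The log2 fold change of G6pc was −0.31 ± 0.38 (SE; adjusted p = 0.614, edgeR), and it turned to 1.03 without vehicle mice 13 to 15 and to −0.97 without vehicle mice 10 to 12. Pck1 had 1180, 2542 and 3204 CPM in CORT livers, against 528, 1521 and 3501 CPM in vehicle livers, a log2 fold change of 0.38 ± 0.36 (adjusted p = 0.504, edgeR) that was −0.23 without mice 13 to 15 and 1.45 without mice 10 to 12. The mice left out were picked on these genes, so these values are a description without a test.

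Fbp1 had 919, 1020 and 1133 CPM in chronic CORT livers, against 928, 998 and 1158 CPM in vehicle livers, with a log2 fold change of 0.00 ± 0.08 (SE; adjusted p = 0.991, edgeR). Ppargc1a had a log2 fold change of −0.29 ± 0.19 (adjusted p = 0.303) and Creb3l3 one of 0.23 ± 0.17 (adjusted p = 0.379, edgeR). Creb3l3 was 0.43 (adjusted p = 0.0363) without vehicle mouse 11, and −0.12 without vehicle mice 13 to 15.

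**Figure D3:**
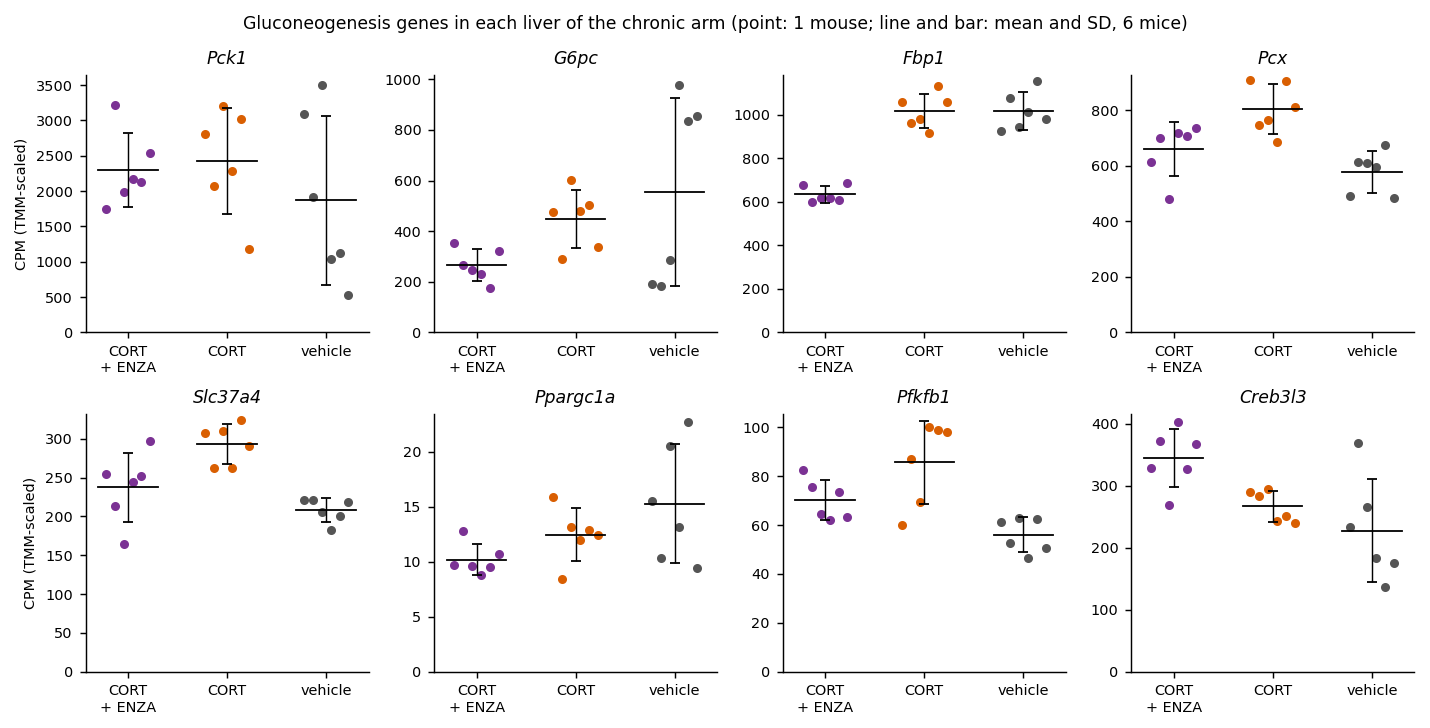
TMM-scaled CPM of each gene in each chronic liver, with CORT+ENZA, CORT and vehicle groups from left to right; points are mice, and lines and bars are the mean and SD of 6 mice. Fbp1 in CORT+ENZA livers lies below both other groups, and the vehicle points of Pck1 and G6pc fall in 2 clumps.

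Fbp1 was lower when ENZA was given with chronic CORT than in either other chronic group. It had 598, 617 and 688 CPM in CORT+ENZA livers, against 919, 1020 and 1133 CPM in CORT livers and 928, 998 and 1158 CPM in vehicle livers. No CORT+ENZA liver reached the range of either other group. Against CORT the log2 fold change was −0.68 ± 0.08 (SE; adjusted p = 1.01e-05, edgeR), beside 4.86% of all tested genes called lower and 2.69% separated in that direction. Against vehicle it was −0.68 ± 0.08 (SE; adjusted p = 4.46e-06, edgeR), beside 8.29% called lower and 3.34% separated.

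The difference in Fbp1 passed in 24 of 24 alternative fits against CORT and 26 of 26 against vehicle. These comparisons share the CORT+ENZA livers. Summed hepatocyte markers were also lower in chronic CORT+ENZA livers, at 64120, 75100 and 86700 CPM (lowest, median, highest), against 93280, 102100 and 128000 CPM in CORT livers and 103700, 111300 and 122000 CPM in vehicle livers. Of the 6 markers, 2 fell in both comparisons, albumin (Alb) among them at −0.65 ± 0.13 on the log2 scale against CORT (adjusted p = 0.00189, edgeR), and 4 did not pass in either. Against CORT, 2 of 10 Kupffer and 1 of 6 stellate cell markers rose (medians 0.85 and 0.89), and against vehicle none of either list passed and all 4 tested B cell markers fell (median −2.17). The part of these markers in the Fbp1 result was not tested.

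No other gene of the 8 differed between chronic CORT+ENZA and CORT, where 11.8% of all tested genes were called. The 3 genes that chronic CORT had raised against vehicle had negative log2 fold changes with ENZA that did not pass, Slc37a4 of −0.30 ± 0.11 (adjusted p = 0.0739), Pcx of −0.29 ± 0.11 (adjusted p = 0.102) and Pfkfb1 of −0.29 ± 0.12 (adjusted p = 0.134, edgeR). Slc37a4 passed without CORT+ENZA mouse 6 (adjusted p = 0.0249) and Pfkfb1 without CORT mouse 1 (adjusted p = 0.0391). G6pc had 176, 256 and 353 CPM in CORT+ENZA livers, against 291, 477 and 602 CPM in CORT livers. The groups overlapped, and the log2 fold change was −0.75 ± 0.38 (SE; adjusted p = 0.217, edgeR). Creb3l3 had the only positive value, 0.37 ± 0.17 (adjusted p = 0.182, edgeR). It passed with only these 2 groups in the fit (adjusted p = 0.0226) and without the 4 libraries that lay apart (0.42, adjusted p = 0.0366), 2 of 24 alternative fits. Ppargc1a (−0.29 ± 0.19, adjusted p = 0.357) and Pck1 (−0.08 ± 0.36, adjusted p = 0.925) did not pass.

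Against chronic vehicle, CORT+ENZA livers also had lower Ppargc1a and higher Creb3l3, where 18.6% of all tested genes were called (10.3% higher and 8.29% lower). Ppargc1a had 8.74, 9.65 and 12.8 CPM in CORT+ENZA livers, against 9.47, 14.3 and 22.7 CPM in vehicle livers. The groups overlapped, with vehicle mice 11 and 15 inside the CORT+ENZA range. Its log2 fold change was −0.59 ± 0.19 (SE; adjusted p = 0.038, edgeR). It passed in 13 of 26 alternative fits, and was lost without any one of vehicle 10, 12 or 14 or of CORT+ENZA 4, 5, 6, 16 or 18 (adjusted p = 0.0533 to 0.109).

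Creb3l3 had 269, 348 and 403 CPM in chronic CORT+ENZA livers, against 137, 208 and 370 CPM in chronic vehicle livers. Vehicle mouse 11 lay among the CORT+ENZA mice and the other vehicle mice lay below all of them. Creb3l3 rose by 0.60 ± 0.17 on the log2 scale (SE; adjusted p = 0.0204, edgeR). It was lost without vehicle mouse 13 (adjusted p = 0.0516) or 15 (adjusted p = 0.0509), and was 0.25 without vehicle mice 13 to 15 together. G6pc had a log2 fold change of −1.06 ± 0.38 (adjusted p = 0.0605, edgeR), passed without vehicle 10, 11 or 12 (adjusted p = 0.0189 to 0.0408), and turned to 0.28 without vehicle mice 13 to 15. Pfkfb1 (0.33 ± 0.12, adjusted p = 0.07) and Slc37a4 (0.19 ± 0.11, adjusted p = 0.241) did not pass, but Pfkfb1 did without CORT mouse 1 (adjusted p = 0.0355) and Slc37a4 without CORT+ENZA mouse 18 (adjusted p = 0.0276, edgeR). CORT mouse 1 is not in this comparison, and without it the log2 fold change of Pfkfb1 stayed at 0.33. Pck1 (0.30 ± 0.36, adjusted p = 0.615) and Pcx (0.19 ± 0.11, adjusted p = 0.257) did not pass, and Pck1 turned to −0.30 without vehicle mice 13 to 15. Pcx passed in 2 of 26 alternative fits.

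**Figure D4:**
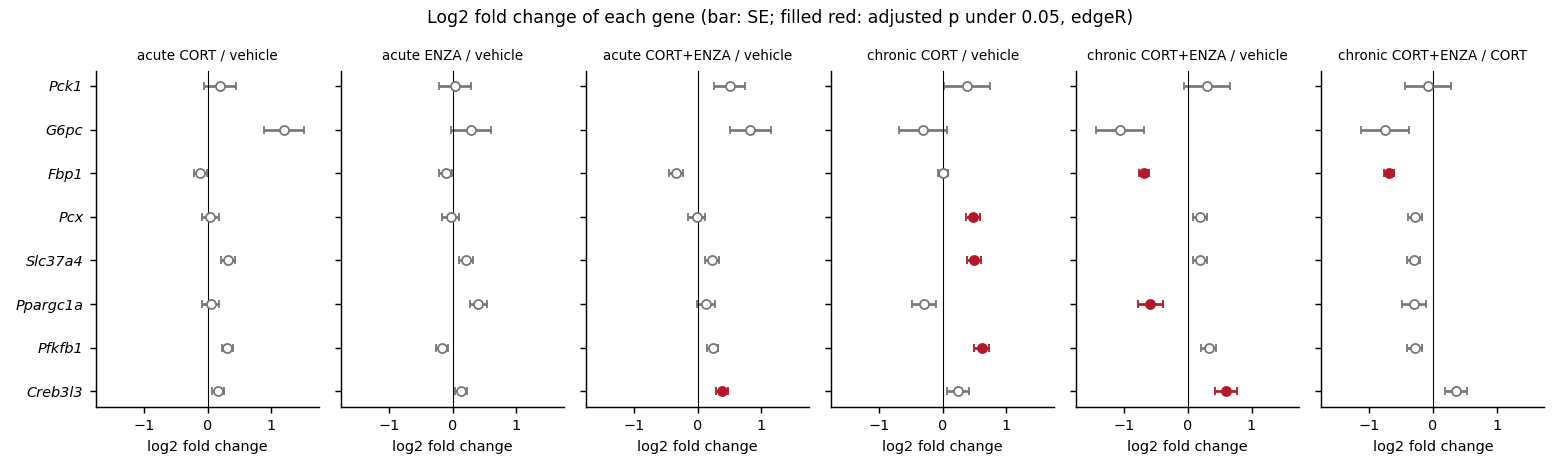
Log2 fold change (x axis) of each gene (y axis) in 6 comparisons, the first group named over the second; bars are the SE and filled red points have an edgeR adjusted p under 0.05. Pcx, Slc37a4 and Pfkfb1 are filled for chronic CORT, at 0.48, 0.49 and 0.61, and Fbp1 is filled at −0.68 in both chronic comparisons of CORT+ENZA.

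The effect of CORT was compared between the arms as a difference of log2 fold changes in 1 model of all 42 libraries. None of the 8 genes passed, where 6.17% of the 14138 genes tested did. The widest difference was that of G6pc, −1.47 ± 0.50 (SE, chronic minus acute; adjusted p = 0.0758, edgeR), beside log2 fold changes of −0.31 in the chronic and 1.20 in the acute arm's own fit. It passed without chronic vehicle 10 (adjusted p = 0.0403) or 11 (adjusted p = 0.0298) and was −0.15 without chronic vehicle mice 13 to 15. Pcx differed by 0.47 ± 0.18 (adjusted p = 0.127) and passed without acute vehicle L19A (0.59, adjusted p = 0.0155, edgeR). The other differences were 0.33 (Pfkfb1), 0.21 (Pck1), 0.20 (Slc37a4), 0.15 (Fbp1), 0.10 (Creb3l3) and −0.31 (Ppargc1a), with adjusted p of 0.195 to 0.835.

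The effect of ENZA added to CORT was compared between the arms in the same model, with 1.27% of all tested genes called. Fbp1 had the largest difference relative to its error, −0.49 ± 0.13 (SE, chronic minus acute; adjusted p = 0.0534, edgeR), beside log2 fold changes of −0.68 in the chronic and −0.22 in the acute arm's own fit. It passed in 12 of 48 alternative fits, with adjusted p of 0.00213 to 0.177 over all of them. The lower bound came without the 4 libraries that lay apart. Left out alone, 9 of the 42 libraries brought it past the threshold, among them L19A (adjusted p = 0.0073) and L36A (adjusted p = 0.0293, edgeR). L19A is an acute vehicle liver and not part of this difference, and without it the value stayed at −0.49. The other 7 genes had differences of −0.41 (Pck1, G6pc and Ppargc1a), −0.25 (Pcx), −0.24 (Pfkfb1), −0.22 (Slc37a4) and 0.12 (Creb3l3), with adjusted p of 0.457 or more.

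The rest of the pathway was a list of 81 further enzymes, transporters and regulators, of which 80 were tested. It held 0 called genes under acute CORT and 0 under acute ENZA, beside 1.62% and 1.31% of all tested genes. Alas1, the rate-limiting enzyme of heme synthesis and a PGC-1 alpha target, rose under CORT+ENZA against vehicle (log2 fold change 1.13 ± 0.27, adjusted p = 0.0236, edgeR). It was the 1 gene of the 80 called there, beside 2.47% of all tested genes. Cidec, a lipid droplet gene on the list of CREBH targets, rose under CORT+ENZA against ENZA (1.32 ± 0.32, adjusted p = 0.0315, edgeR), where 1.81% of all tested genes were called. Nr3c1, the glucocorticoid receptor gene, had log2 fold changes of 0.08 to 0.22 against vehicle (adjusted p = 0.41 to 0.826), and the regulators Foxo1, Hnf4a and Crtc2 did not pass in any acute comparison.

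Under chronic CORT, 13 of the 80 pathway genes rose and 6 fell, beside 18.3% of all tested genes called, with a median log2 fold change of 0.10 over the list and −0.01 over all tested genes. Apoa4, an apolipoprotein gene and known CREBH target, averaged 1491 CPM in CORT livers and 169 CPM in vehicle livers (3.14 ± 0.41, adjusted p = 5.58e-05, edgeR). Of 8 genes of the opposing glycolytic direction, 3 rose and 1 fell. Pfkfb3, which raises the glycolytic signal that Pfkfb1 also sets, averaged 43.1 CPM in CORT livers and 14.1 CPM in vehicle livers (1.61 ± 0.26, adjusted p = 0.000373, edgeR). For the pathway genes named here and below, levels by run of vehicle mice and refits without either run were not examined. The part of the split among chronic vehicle mice in their calls against vehicle was not tested.

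Of 25 genes for substrate entry, 3 rose and 3 fell under chronic CORT, again beside 18.3% of all tested genes. Slc16a7, a monocarboxylate carrier, had a log2 fold change of 0.86 ± 0.13 (adjusted p = 0.000204) and Gpd2, the mitochondrial glycerol phosphate dehydrogenase, one of −0.64 ± 0.10 (adjusted p = 0.00018, edgeR). Of 25 regulators, 3 rose and 2 fell, a share close to that background. Foxo1, which drives G6pc and Pck1 when insulin is low, rose by 0.41 ± 0.10 (adjusted p = 0.00838), and Hnf4a, a liver factor needed for gluconeogenic genes, rose by 0.27 ± 0.09 (adjusted p = 0.0467). Esrra, an orphan receptor that works with PGC-1 alpha, rose by 0.43 ± 0.08 (adjusted p = 0.00101), and Nr3c1 fell by 0.27 on the log2 scale (adjusted p = 0.0297, edgeR). Pck2, the mitochondrial form of the carboxykinase, did not pass (0.05 ± 0.19, adjusted p = 0.877, edgeR).

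In chronic CORT+ENZA livers against vehicle, 9 of the 80 pathway genes rose and 8 fell, shares close to the 10.3% called higher and 8.29% called lower over all tested genes. Alas1 averaged 859 CPM in CORT+ENZA livers and 163 CPM in vehicle livers (2.40 ± 0.37, adjusted p = 0.000186), and Slc16a7 averaged 121 CPM in CORT+ENZA livers and 46.9 CPM in vehicle livers (1.36 ± 0.13, adjusted p = 9.9e-07, edgeR). Pklr, the liver pyruvate kinase that runs opposite to Pck1, averaged 311 CPM in CORT+ENZA livers and 640 CPM in vehicle livers (−1.04 ± 0.25, adjusted p = 0.00592, edgeR).

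Between chronic CORT+ENZA and CORT livers, 2 of the 80 pathway genes rose and 5 fell. Over all 13099 tested genes, 916 were called higher and 636 lower (4.86%), 11.8% either way. Pklr averaged 311 CPM in CORT+ENZA livers and 717 CPM in CORT livers (−1.20 ± 0.25, adjusted p = 0.00361, edgeR). Foxo1, Gapdh and Hnf4a had log2 fold changes of −0.34, −0.31 and −0.31 (adjusted p = 0.0301, 0.0314 and 0.0323, edgeR), and Alas1 and Slc16a7 rose. Between the arms the CORT effect differed for 6 of the 80 pathway genes, beside 6.17% of all tested genes, more positive in the chronic arm for Apoa4, Slc16a7 and Pfkl and more negative for Gpd2, Slc25a11 and Pdk4, and the added ENZA effect for none.

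From mouse to mouse within groups, no pair of the 8 genes was correlated after adjustment over the 56 pairs of both arms (Pearson and Spearman, permutation test, 100000 permutations, two-sided). In the acute arm Fbp1 and Pcx had Pearson r = 0.71 and Spearman rho = 0.37 over 24 mice (permutation p = 0.0212 and 0.0945, adjusted p = 0.395 and 0.618). Without L19A and L36A, the livers farthest from the median of Fbp1, r was 0.11 with the group means kept and −0.16 with the group means taken anew over the 22 mice (permutation p = 0.525), so the relation rests on those livers, where both genes were low. In the chronic arm Fbp1 and Pcx had r = 0.56 and rho = 0.55 over 18 mice (permutation p = 0.019 and 0.0276, adjusted p = 0.395 and 0.618), and r = 0.43 without the 2 livers farthest from the median. No pooled value is given for pairs with Pck1, G6pc or Creb3l3 in the chronic arm, since the vehicle mice fell into separate clusters.

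As a description, genes that varied most like each of the 8 within groups were looked up among 9168 genes of the chronic and 9199 of the acute arm, as r of deviations from group means, over points that share library and depth. Acute Pck1 was most like Cyp4a32 (r = 0.76), Slc38a2 (0.70) and Igfbp1 (0.70), and acute G6pc most like Ddo (0.74), Simc1 (0.67) and Sec61g (0.64) over 24 mice. Acute Slc37a4 was most like Map3k6 (r = 0.75), Tkt (0.75) and Fkbp5 (0.75). Among the genes most like chronic Fbp1 were Khk (r = 0.75) and Mmachc (0.73) over 18 mice. Chronic Pcx was most like Herpud2 (r = 0.86), Scly (0.84) and Col18a1 (0.83).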

How the data were processed

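The deposited values are whole-number read counts per gene in 1 table for each arm, 42 libraries in all, made by the authors from stranded, paired-end, mRNA-enriched libraries, per the labels' protocols. The submitters' processing notes name FastQC, MultiQC, STAR 2.7.3a, HTSeq 0.12.4 and the build mm10. Which strand setting was used for counting is not given in the sources used here. Of 55573 gene IDs, 55394 matched a symbol and 55480 a GENCODE M21 gene.

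Counts were tested with edgeR 4.0.16 in R 4.3.3 (limma 3.58.1): genes were kept by filterByExpr (minimum count 10, minimum total 15), scaled by TMM and fitted with robust quasi-likelihood models, with all libraries of an arm in 1 fit and all 42 libraries in 1 fit for differences between arms. Adjusted p-values are Benjamini-Hochberg over all genes tested and were called under 0.05. They weigh each difference against the spread between these samples. CPM used TMM-scaled library sizes. DESeq2 1.42.0 and other settings were alternatives, and the models were tested on simulated data.

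The 8 genes, the 81 further pathway genes and the marker lists were chosen with earlier results of these data known. Values of all 8 genes are given for every comparison. Of the pathway genes, up to 8 called genes per comparison, by smallest p, and a few regulators whatever their p could be named. For likeness, the 3 genes of at least 5 CPM with the highest r were looked up, on log2(CPM + 1). Some called pathway genes are not reported here.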

Additional observations from a re-analysis of the deposited data

Results flagged for a closer look

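Within groups of 6 mice, 4 of the 56 gene and group combinations held a mouse whose gap to its nearest neighbour was a larger part of the group's range than Dixon's 95% critical value, where chance gives about 1 in 20 groups. Fbp1 was 534 CPM in acute vehicle mouse L19A, against 852 to 973 CPM in the other vehicle mice. Pcx was 381 CPM in acute CORT+ENZA mouse L36A, against 565 to 648 CPM in the other mice of that group. Ppargc1a was 9.54 CPM in acute CORT mouse L32A, against 6.73 to 7.62 CPM in the others. Slc37a4 was 182 CPM in acute ENZA mouse L17A, against 243 to 276 CPM in the others.

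Among the further pathway genes, the effect of CORT differed between the chronic and the acute arm for 6 genes, as the tested difference of log2 fold changes (edgeR, chronic minus acute). It was 3.16 for Apoa4 (adjusted p = 4.18e-05), 1.21 for Slc16a7 (adjusted p = 0.00023) and 0.50 for Pfkl (adjusted p = 0.0065). It was −0.80 for Gpd2 (adjusted p = 0.00658), −0.34 for Slc25a11 (adjusted p = 0.0464) and −1.77 for Pdk4 (adjusted p = 0.0498). Duration and extraction kit cannot be told apart in these differences. The differences also rest on the chronic vehicle mice, and the part of the split among those mice was not tested for these genes.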

How the results depend on the processing

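The cause of the changes listed here was not tested. DESeq2 called 2 of the 8 genes for acute CORT against vehicle, 2 for acute CORT+ENZA against vehicle, 5 for chronic CORT+ENZA against vehicle, 2 for chronic CORT+ENZA against CORT, and 1 for each difference between arms. Over all genes DESeq2 called 432, 584, 2800 and 2008 genes for these comparisons, in that order. It called 1073 for the CORT effect and 319 for the added ENZA effect between arms. With only the groups compared in the fit, 0 of the 8 were called for acute CORT+ENZA against vehicle, 3 for chronic CORT+ENZA against CORT and 1 for the added ENZA effect between arms. Over all genes, that setting called 203, 1563 and 192, in the same order. Without the 4 libraries that lay apart, 2 of the 8 were called for acute CORT+ENZA against vehicle, 6 for chronic CORT+ENZA against vehicle, 2 for chronic CORT+ENZA against CORT, 2 for the CORT effect between arms and 1 for the added ENZA effect. Over all genes, 328, 3382, 1721, 1810 and 323 were called without them, in the same order.

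Other settings were chosen after seeing the data. Without chronic vehicle mice 10 to 12, 6 genes were called for chronic CORT and 3 for the CORT effect between arms, and without mice 13 to 15, 1 for chronic CORT+ENZA against vehicle. These mice were set apart on Pck1, G6pc and Creb3l3, which make up 3 of those 6 and all 3 of those 3 calls, so these counts are a description and no test. Over all genes, the fits without mice 10 to 12 called 2505 for chronic CORT and 1199 for the CORT effect between arms. The fit without mice 13 to 15 called 1532 over all genes for chronic CORT+ENZA against vehicle. Without chronic CORT mouse 1 and CORT+ENZA mouse 18, 5 were called for CORT+ENZA against vehicle. Log2 fold changes turned sign as follows. Without mice 13 to 15, Pck1 was −0.23, G6pc 1.03 and Creb3l3 −0.12 under chronic CORT, Pck1 −0.30 and G6pc 0.28 under CORT+ENZA against vehicle, and the CORT effect between arms −0.40 for Pck1 and −0.26 for Creb3l3. Without mice 10 to 12, Fbp1 was −0.026 under chronic CORT. Without CORT mouse 1 and CORT+ENZA mouse 18, Pck1 was 0.0013 for CORT+ENZA against CORT.

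With a term for runs of consecutive mouse numbers, Pck1 was −0.024 under acute ENZA and Pcx −0.00045 for CORT+ENZA against ENZA. Without the libraries that lay apart, Pcx was −0.078 and Ppargc1a −0.0096 under acute CORT, Pck1 −0.038 under ENZA, Pcx 0.030 for CORT+ENZA against CORT, and the interaction 0.030 for Fbp1 and 0.18 for Pcx.

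Leaving out each library in turn gave 0 to 2 called genes for acute CORT, 0 to 1 for acute CORT+ENZA against vehicle and against ENZA, 1 to 2 for chronic CORT+ENZA against CORT, and 0 to 1 for each difference between arms. In the acute arm Pcx ranged from −0.078 to 0.11 under CORT, −0.15 to 0.030 under ENZA, −0.14 to 0.074 under CORT+ENZA, −0.11 to 0.031 for CORT+ENZA against CORT, −0.029 to 0.11 against ENZA, and −0.090 to 0.094 in the interaction. Pck1 ranged from −0.11 to 0.21 under ENZA, Ppargc1a from −0.026 to 0.097 under CORT and −0.0035 to 0.16 for CORT+ENZA against CORT, and Slc37a4 from −0.062 to 0.045 for CORT+ENZA against ENZA. In the chronic arm Fbp1 ranged from −0.023 to 0.047 under CORT and Pck1 from −0.22 to 0.017 for CORT+ENZA against CORT, and the CORT effect between arms from −0.0089 to 0.31 for Creb3l3.

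Counts over all genes moved by more than 1.5 times as well. DESeq2 called 432 genes for acute CORT against 222 by edgeR, 388 against 180 for ENZA, 584 against 339 for CORT+ENZA against vehicle, 59 against 24 for CORT+ENZA against CORT, 461 against 248 for CORT+ENZA against ENZA, and 319 against 179 for the added ENZA effect. Without a filter on low counts edgeR called 90 for ENZA, 156 for CORT+ENZA against ENZA and 509 against 873 for the CORT effect between arms. With only the groups compared it called 96 for acute CORT, 94 for ENZA and 203 for CORT+ENZA against vehicle. Without the libraries that lay apart it called 39 for acute CORT+ENZA against CORT, 1810 for the CORT effect and 323 for the added ENZA effect. Without chronic vehicle mice 13 to 15 it called 1551 against 2401 for chronic CORT and 1532 against 2434 for CORT+ENZA.

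No paired analysis was possible because the groups compared share no replicate numbers and the labels do not say that a run of consecutive numbers marks a shared cage, litter or day. As an alternative, the term for such runs in the acute arm (6 runs with 1 mouse of each group) changed none of the calls among the 8 genes and gave 286 called genes for acute CORT against 222. Ppargc1a, at 5.91 to 22.7 CPM, is the gene for which depth limits precision most.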
